A study of Mus musculus with 2 samples.

Results

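The proteasome gene family of mouse hematopoietic stem cells was taken as every protein coding gene whose symbol starts with Psma, Psmb, Psmc, Psmd, Psme, Psmf or Psmg followed by a digit. The immunoproteasome genes Psmb8, Psmb9 and Psmb10 and symbols marked as pseudogenes were set apart. This gave 47 genes of 42462 annotated genes in the tables, of which 21474 are protein coding. A proteasome role was assigned to 45 of them; the others were Psme2b, a near-identical copy of Psme2, and Psmc3ip, a meiotic recombination factor whose symbol matches by its letters alone. The genes lie on 16 chromosomes, with 10 on chromosome 11, and positions below are those of GRCm38, the build the tables name mm10.

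Hematopoietic stem cells are rare marrow cells that renew themselves and form all blood lineages. A single group of 2 total RNA libraries was measured, each from 100 such cells of C57BL/6J male adult mice aged 5 to 6 weeks, with no treatment or engineered allele in the labels and no second condition. The labels number them as biological replicates 1 and 2 and give 1 donor identifier with separate biosample identifiers. Nothing in the labels says that the pools came from separate animals, so their spread measures these samples and may be technical.

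The proteasome is the protease that degrades proteins tagged with ubiquitin. Its core is a barrel of stacked alpha and beta rings with the cutting sites inside; a regulatory particle, made of a base with an ATPase ring and a lid, binds, unfolds and feeds in the substrate. Activators can cap the barrel in place of that particle, and dedicated chaperones assemble core and base. In blood stem cells, which make protein slowly, the ubiquitin and proteasome system is known for limiting misfolded protein and for the turnover of Myc and cell cycle regulators.

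The expected counts of replicate 1 totalled 48313341 and those of replicate 2 totalled 28947093, of which 61584 and 34081 fell on the 47 genes. Levels are given in TPM, which divides by transcript length and scales each library to a fixed total, so genes can be compared with each other. Detection of a gene means a level of 1 TPM or above together with 10 or more expected counts. In pooled cells, fewer cells of a type and less RNA per cell cannot be told apart. Of 12 stem cell markers, 10 were detected in both libraries, among them Kit (108 and 117 TPM) and Ly6a, which encodes Sca-1 (47.0 and 25.3 TPM), whereas Slamf1, which encodes CD150, had 2.87 TPM in replicate 1 and 0.36 TPM in replicate 2. Of 10 neutrophil and monocyte markers, 2 were detected in both, and their summed levels were 8.48 TPM (replicate 1) and 385.9 TPM (replicate 2).

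Of the whole family, 42 of 47 genes (89.4%) were detected in both libraries, against 45.5% of all protein coding genes. All 31 genes of the family that encode subunits of the constitutive core and the regulatory particle, a set without Adrm1 and Sem1 of other symbols, were detected in both libraries. Their lowest, median and highest values were 12.9, 24.1 and 73.2 TPM in replicate 1, and 11.2, 29.4 and 55.7 TPM in replicate 2. Within 2-fold of that median lay 25 of the 31 genes in replicate 1 and 30 in replicate 2. The median of the 45 genes with a role was 24.9 ± 1.60 TPM (SD, n = 2), while the median protein coding gene had 0.21 TPM in replicate 1 and 1.02 TPM in replicate 2. Among protein coding genes detected in either library the medians were 11.4 and 10.3 TPM. The family held 0.499% of the TPM on nuclear coding genes in replicate 1 and 0.518% in replicate 2.

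**Figure D1:**
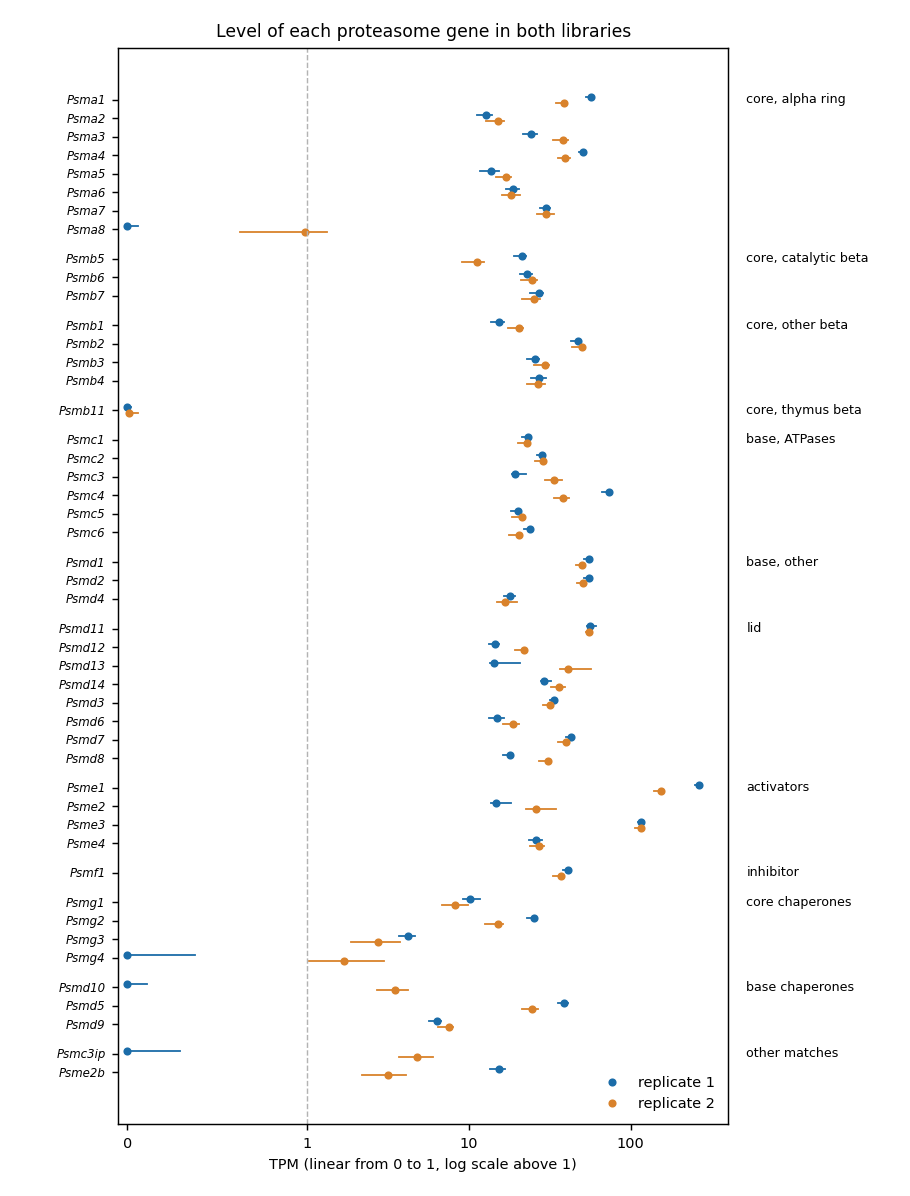
Level of each of the 47 genes in TPM (linear from 0 to 1, log scale above), grouped by role; points are the 2 libraries, bars the credibility intervals deposited with each value, and the dashed line marks 1 TPM. The core, base and lid genes lie between 11.2 and 73.2 TPM apart from Psma8 and Psmb11, Psme1 and Psme3 lie above 100 TPM, and 5 genes are at 0 in replicate 1.

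The alpha ring, which gates the barrel, is built from 7 gene products in most cells. Their genes ranged from 12.9 TPM (Psma2) to 57.1 TPM (Psma1) in replicate 1 and from 15.2 TPM (Psma2) to 39.2 TPM (Psma4) in replicate 2. Psma7 was almost equal in the libraries, at 29.9 TPM in each. Psma8, which replaces Psma7 in the testis form, had no count in replicate 1, which allows up to 0.0595 TPM (3 counts, for counting error only), and 28 counts (0.99 TPM) in replicate 2. The log2 ratio of Psma7 over Psma8 was 8.23 in replicate 1 and 4.78 in replicate 2, with 0.1 TPM added to each value.

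The beta ring carries the proteolytic sites. Psmb5, the chymotrypsin-like subunit and the main target of bortezomib, stood at 21.2 TPM in replicate 1, against 11.2 TPM in replicate 2, the lowest of the 31 genes there. Psmb6, the caspase-like subunit, had 22.9 and 24.5 TPM, and Psmb7, the trypsin-like subunit, 27.1 and 25.4 TPM. These 2 genes were level between the libraries, whereas the deposited intervals of Psmb5 did not overlap. The non-catalytic genes Psmb1, Psmb2, Psmb3 and Psmb4 spanned 15.5 to 47.1 TPM in replicate 1 and 20.4 to 49.8 TPM in replicate 2, with Psmb2 highest in both. Psmb11, the catalytic subunit of cortical thymus epithelium, had no count in replicate 1 (up to 0.0227 TPM) and a single count in replicate 2.

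Each constitutive catalytic subunit has an immunoproteasome counterpart that interferon gamma induces and that many blood cells carry at rest. Psmb8 was measured at 18.2 TPM in replicate 1, against 21.7 TPM in replicate 2, Psmb9 at 17.0 and 18.9 TPM, and Psmb10 at 25.4 and 8.75 TPM. All 3 were detected in both libraries. The log2 ratio of Psmb6 over Psmb9 was 0.40 ± 0.04 (SD, n = 2) and above 0 in both libraries. That of Psmb7 over Psmb10 was 0.81 ± 1.01, with 0.09 in replicate 1 and 1.53 in replicate 2, and that of Psmb5 over Psmb8 was -0.36 ± 0.82, with 0.22 in replicate 1 and -0.94 in replicate 2. The last 2 ratios varied by more than their own size. With 2 libraries, the exact two-sided sign-flip test can reach no p below 0.5, and it gave 0.5, 0.5 and 1.0 in the order above. On coding transcripts alone, all 3 ratios varied widely. Psmb6 over Psmb9 became 1.24 ± 1.27 (2.14 in replicate 1 and 0.34 in replicate 2) and Psmb5 over Psmb8 became 0.38 ± 1.63. Psmb7 over Psmb10 was 0.93 in replicate 2; in replicate 1 the coding transcripts of Psmb7 are listed at 0, so that the added 0.1 TPM sets the ratio and its mean of -3.53.

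The base of the regulatory particle holds 6 ATPases, Psmc1 to Psmc6, which unfold the substrate and open the gate. Their median was 24.7 ± 1.70 TPM (SD, n = 2). Psmc1 (23.1 and 23.0 TPM), Psmc2 (28.4 and 28.7 TPM) and Psmc5 (20.1 and 21.2 TPM) were almost equal in the libraries, and Psmc6 had 23.8 and 20.3 TPM. Psmc3 was lower in replicate 1, at 19.4 TPM against 33.6 TPM in replicate 2, but its coding transcripts were almost equal in sum (19.4 and 19.7 TPM). Single coding transcripts of Psmc3 differed, with Psmc3-210 at 11.2 and 0 TPM and Psmc3-202 at 8.20 and 17.2 TPM. Psmc4 was higher in replicate 1, at 73.2 TPM against 38.4 TPM in replicate 2, and was the highest of the 31 genes in replicate 1. The scaffolds Psmd1 (55.3 and 49.8 TPM) and Psmd2 (55.0 and 51.1 TPM) were more abundant than all ATPases except Psmc4 in replicate 1. Psmd4, a ubiquitin receptor, had 17.9 and 16.6 TPM.

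The lid removes ubiquitin before a substrate is degraded. Psmd14, its deubiquitinase, stood at 29.1 TPM in replicate 1, against 36.0 TPM in replicate 2, and Psmd7, with which it pairs, at 42.9 and 39.9 TPM. Psmd11, a scaffold of the lid, was the highest lid gene at 56.4 and 55.7 TPM, and Psmd3 had 33.8 and 31.9 TPM. The deposited intervals of the libraries overlapped for these genes except Psmd14, whose coding transcripts went the other way (29.1 TPM in replicate 1 and 21.7 TPM in replicate 2). Psmd12, Psmd6 and Psmd8 ranged from 14.6 to 18.0 TPM in replicate 1 and from 18.8 to 30.7 TPM in replicate 2. Psmd13 (chr7:140881968-140898643, plus strand), another lid scaffold, was lowest of the lid in replicate 1 at 14.3 TPM and second highest in replicate 2 at 40.9 TPM.

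Activator genes included the most abundant of the family. Psme1 (chr14:55578123-55581529, plus strand), 1 of the paired subunits of the cap that interferon gamma induces, had 267 TPM in replicate 1 and 154 TPM in replicate 2, the 99.5 and 99.1 percentiles of protein coding genes. Psme3 (chr11:101316213-101323537, plus strand), which forms a nuclear cap that works without ubiquitin, followed at 117 and 115 TPM. Psme4, the large nuclear activator known for histone turnover in sperm cells, had 26.2 and 27.1 TPM. Psme2, the partner of Psme1 in a mixed ring, had 14.8 TPM in replicate 1 and 26.1 TPM in replicate 2. The inhibitor gene Psmf1 stood at 41.0 and 37.1 TPM.

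Psme2 (chr14:55587441-55591113, minus strand) can share reads with Psme2b (chr11:48945354-48946190, minus strand). Over 670 aligned coding bases they differ at 5, an identity of 99.3%. A stretch of 90 bases that holds 3 of these differences is shown because within the aligned part reads over such bases alone tell the copies apart; capitals mark the bases that differ, and the letters are those of the GRCm38 reference for the transcripts Psme2-201 (coding bases 430 to 519) and Psme2b-201 (coding bases 454 to 543).
Psme2: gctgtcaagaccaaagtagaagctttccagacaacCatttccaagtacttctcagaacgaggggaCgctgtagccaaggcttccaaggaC
Psme2b: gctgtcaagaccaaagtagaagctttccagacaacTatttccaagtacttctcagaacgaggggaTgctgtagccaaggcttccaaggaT
Psme2b was estimated at 15.5 TPM in replicate 1, against 3.16 TPM in replicate 2. It held 48.4% and 13.2% of the summed counts of both genes (732 and 308), and the posterior SD of each gene's count was 4.01 in replicate 1 and 1.53 in replicate 2. Summed gene levels were 30.2 TPM in replicate 1, against 29.2 TPM in replicate 2. On coding transcripts the sums were 30.3 and 17.4 TPM, Psme2 itself being nearly equal there (14.8 and 14.3 TPM), and its retained intron transcripts had 0 and 11.8 TPM. Within the coding part of Psme2, Psme2-208 had 10.95 and 4.54 TPM and Psme2-201 had 3.84 and 9.71 TPM. How far the split between the copies follows expression was not tested. Psme2b also lies within Gm12185, a longer coding gene on the same strand at 1.05 and 1.35 TPM.

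The excess of Psme1 over Psme2 held on coding transcripts. The log2 ratio of Psme1 over Psme2 was 3.36 ± 1.14 (SD, n = 2) on gene levels and 2.76 ± 0.53 with Psme2b added to Psme2. On transcripts annotated protein coding, with Psme2b left out, it was 2.41 ± 0.02, which is 5.26-fold in replicate 1 and 5.34-fold in replicate 2. The closeness of these folds rests on the split between the copies, which was not tested. Adding Psme2b brings the coding level of Psme2 to 30.25 (replicate 1) and 17.41 TPM (replicate 2). Psme1 stays above both sums, but by unequal folds. Psme1 as a gene was higher in replicate 1, but its coding transcripts summed to 78.2 TPM there and 76.5 TPM in replicate 2. Single coding transcripts differed, with Psme1-201 at 41.6 and 9.73 TPM and Psme1-208 at 36.6 and 66.1 TPM in replicates 1 and 2. Transcripts annotated as retained intron held 115.5 TPM of Psme1 in replicate 1, against 22.7 TPM in replicate 2, and those annotated for nonsense-mediated decay 72.9 and 54.3 TPM. The order of Psme3 and Psme1 depended on this. On gene levels the log2 ratio of Psme3 over Psme1 was -0.80 ± 0.55 and on coding transcripts 0.45 ± 0.06, each with 1 sign in both libraries (exact two-sided sign-flip p = 0.5, the smallest possible). Psme4 stayed below Psme3, with a log2 ratio of -2.12 ± 0.05 on gene levels and -2.93 ± 0.45 on coding transcripts.

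**Figure D2:**
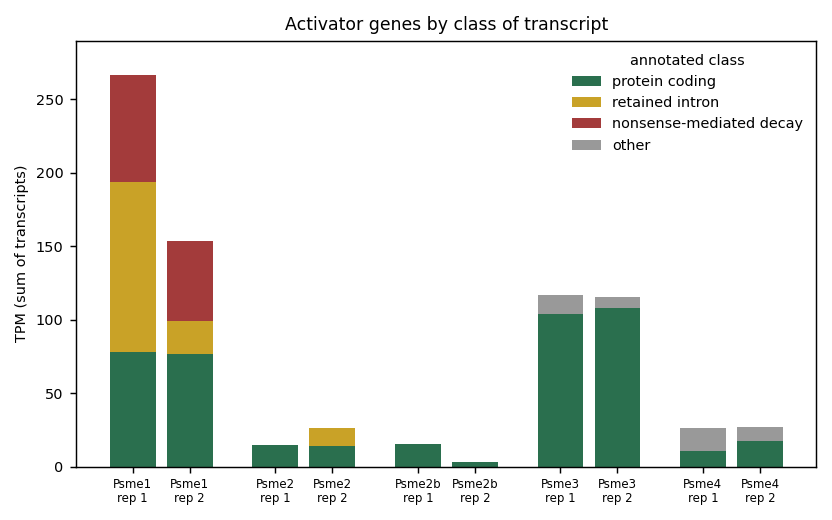
TPM of the activator genes and of the copy Psme2b in each library, as stacked bars of the transcript classes in the annotation. The summed coding part of Psme1 is nearly equal in the libraries (78.2 and 76.5 TPM), though its single coding transcripts differ. Its retained-intron part is 115.5 TPM in replicate 1 and 22.7 TPM in replicate 2.

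Assembly chaperones had the lowest medians. The core chaperones had a median of 6.33 ± 1.22 TPM and the base chaperones of 6.91 ± 0.83 TPM (SD, n = 2), below each other role. These rest on 4 and 3 genes, 1 of each with no count in replicate 1; over the genes detected in both libraries they were 9.19 and 19.4 TPM. Assembly genes with other symbols, such as Pomp, are not counted in them. Psmg2 (25.2 and 15.1 TPM) and Psmg1 (10.2 and 8.19 TPM), which act as a pair on the alpha ring, exceeded Psmg3 (4.20 and 2.75 TPM) and Psmg4 (0 and 1.69 TPM), a second pair. Of the base chaperones, Psmd5 had 38.8 and 24.8 TPM, Psmd9 had 6.32 and 7.49 TPM, and Psmd10, also known as gankyrin, had 0 and 3.52 TPM. The first of these was in the range of the subunits, the others below it.

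The 5 genes not detected in both libraries all had no count in replicate 1. Beside Psma8 and Psmb11 these were Psmg4, Psmd10 and Psmc3ip, with 13, 83 and 76 counts in replicate 2 (1.69, 3.52 and 4.80 TPM). By the limit of 3 counts, for counting error alone, no count in replicate 1 allows up to 0.239 TPM of Psmg4, 0.0726 TPM of Psmd10 and 0.104 TPM of Psmc3ip. The deposited intervals of these genes in replicate 1 reached higher, to 0.377, 0.112 and 0.295 TPM. Gaps with no count were common in that library. No count in replicate 1 was found for 26.1% of the 1640 coding genes with 1 to 3 TPM in replicate 2 and for 8.22% of the 1204 with 3 to 5 TPM, and no count in replicate 2 for 2.58% and 1.08% of the genes with those levels in replicate 1. Whether the cells of replicate 1 lacked these RNAs was not tested.

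Between the libraries, more than 2-fold apart on the log2(TPM + 1) scale were 5 of the 45 genes detected in either (11.1%), against 23.3% of 11189 nuclear coding genes. Psme2b alone was higher in replicate 1 (log2 difference of replicate 1 minus replicate 2 of 1.98; 11.2% of coding genes passed in that direction). Psmd13 (-1.45), Psmg4, Psmd10 and Psmc3ip were higher in replicate 2 (12.1% of coding genes). Except for Psmd13 these are the genes of shared reads or of no count described above. The median difference was 0.00 over the family and 0.09 over the coding genes, and the median absolute difference 0.28 and 0.49. The deposited intervals did not overlap for 10 genes higher in replicate 1 (39.9% of coding genes) and 11 higher in replicate 2 (30.2%). Across the 42 genes detected in both libraries, log2(TPM + 1) had a Pearson correlation of 0.85 and a Spearman correlation of 0.79 between the libraries as a description across genes, which share library, depth and scaling and are not independent replicates.

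Markers of some cell types also differed between the libraries, beside 11.2% of coding genes over 2-fold higher in replicate 1 and 12.1% in replicate 2. Of the 10 neutrophil and monocyte markers, 8 were over 2-fold higher in replicate 2; S100a8, Ltf, Mmp8 and Fcnb, were at 0 in replicate 1, and Mmp8 in replicate 2 also. Of 7 measured B cell markers 4 were over 2-fold higher in replicate 2, with sums of 9.08 and 24.6 TPM, and 4 (Cd79b, Ms4a1, Pax5 and Vpreb1) were at 0 in replicate 1. Of 7 T and NK cell markers, 4 were over 2-fold higher in replicate 1 and 2 in replicate 2, with sums of 58.4 and 66.6 TPM. All 8 erythroid markers were detected in both libraries, with sums of 2089 and 1794 TPM and none over 2-fold apart. Of the 12 stem cell markers, 2 were over 2-fold higher in replicate 1 and 0 in replicate 2, with sums of 630.8 and 466.6 TPM. These marker names were chosen after their values were seen. The part of these cells in the differences of proteasome genes was not tested.

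**Figure D3:**
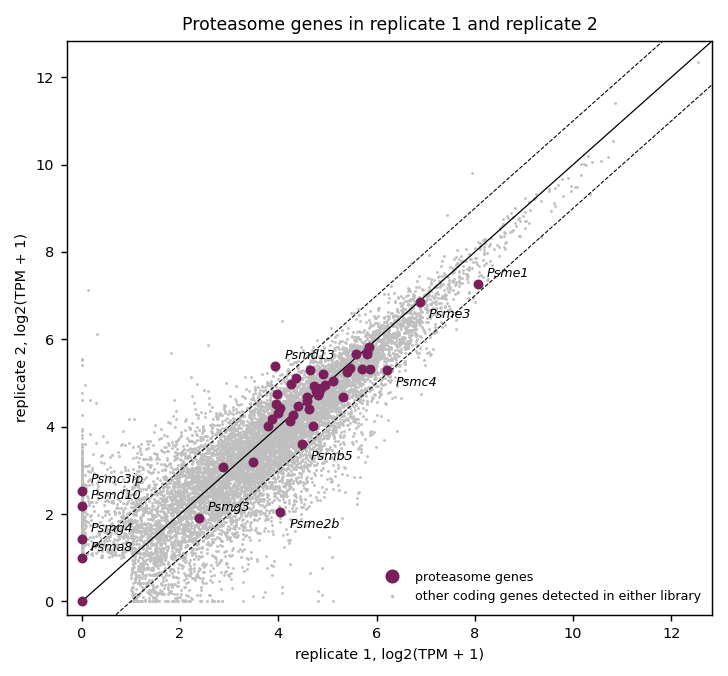
Log2(TPM + 1) of the 47 proteasome genes (large points) and of the other nuclear coding genes detected in either library (small points), replicate 1 across and replicate 2 up; the solid line is equality and dashed lines mark 2-fold. Most proteasome genes lie between the dashed lines, with Psme2b below them and Psmd13, Psmg4, Psmd10 and Psmc3ip above.

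The transcript estimates give how much of each gene was assigned to transcripts annotated protein coding. Some of these are much shorter than others of their gene, such as Psmd5-202 (555 bases) beside Psmd5-201 (2020 bases). Whether each encodes the whole subunit was not tested. Over the 42 genes detected in both libraries the median share of TPM on coding transcripts was 87.5% in replicate 1 and 84.6% in replicate 2, against 100.0% and 90.7% over 9769 detected coding genes. For genes such as Psmb5, Psmc1 and Psmd7, whose single listed transcript is coding, the share is fixed at 100%. Below 50% were 7 genes in replicate 1 and 4 in replicate 2, against 21.4% and 17.7% of those coding genes. The leading transcript was the same in both libraries for 33 of the 42 genes and was coding in both for 35. It was a retained intron transcript for 4 genes in replicate 1 and for 2 in replicate 2. No such counts over all detected coding genes are given here, so these describe the family alone.

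Several genes were led by different transcripts in the libraries, in some cases at like gene levels. All 424 counts of Psmb7 in replicate 1 were assigned to the retained intron transcript Psmb7-202 and none to the coding Psmb7-201, which had 312 of 388 counts in replicate 2. Psmg3 likewise had its 307 counts in replicate 1 on the retained intron transcript Psmg3-203, and 99.3% of its TPM on coding transcripts in replicate 2. Psmc4 was led by the retained intron transcript Psmc4-205 in replicate 1 (66.2% of its TPM); its coding transcripts had 12.8 TPM there and 29.4 TPM in replicate 2, the reverse of the gene level. Psmb4 had 15.7 TPM on coding transcripts in replicate 1 and 5.12 TPM in replicate 2. Psma3 had 4.88 and 16.9 TPM, with the decay transcript Psma3-207 at 60.4% of the gene in replicate 1.

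In Psmd13 the summed coding part did not move with the gene. Its coding transcripts had 7.33 TPM in replicate 1, against 8.29 TPM in replicate 2, and its retained intron transcripts 0.19 and 21.9 TPM. The coding transcripts themselves differed: Psmd13-201 had 0 and 6.74 TPM, whereas a pair of other coding transcripts had 3.15 and 2.26 TPM in replicate 1 and 0 in replicate 2. An overlapping pseudogene on the same strand, Gm15542, had 1.53 and 7.15 TPM. Counted on coding transcripts, 2 genes of the family were over 2-fold higher in replicate 1 (Psmb4 and Psme2b; 10.4% of coding genes) and 7 in replicate 2 (Psma3, Psmb7, Psmc4, Psmg3, Psmg4, Psmd10 and Psmc3ip; 14.4%). The biological state of these transcripts was not tested, and no source names the strand setting; Psmb7 overlaps Nek6, and Psmc3 overlaps Slc39a13, on the opposite strand.

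**Figure D4:**
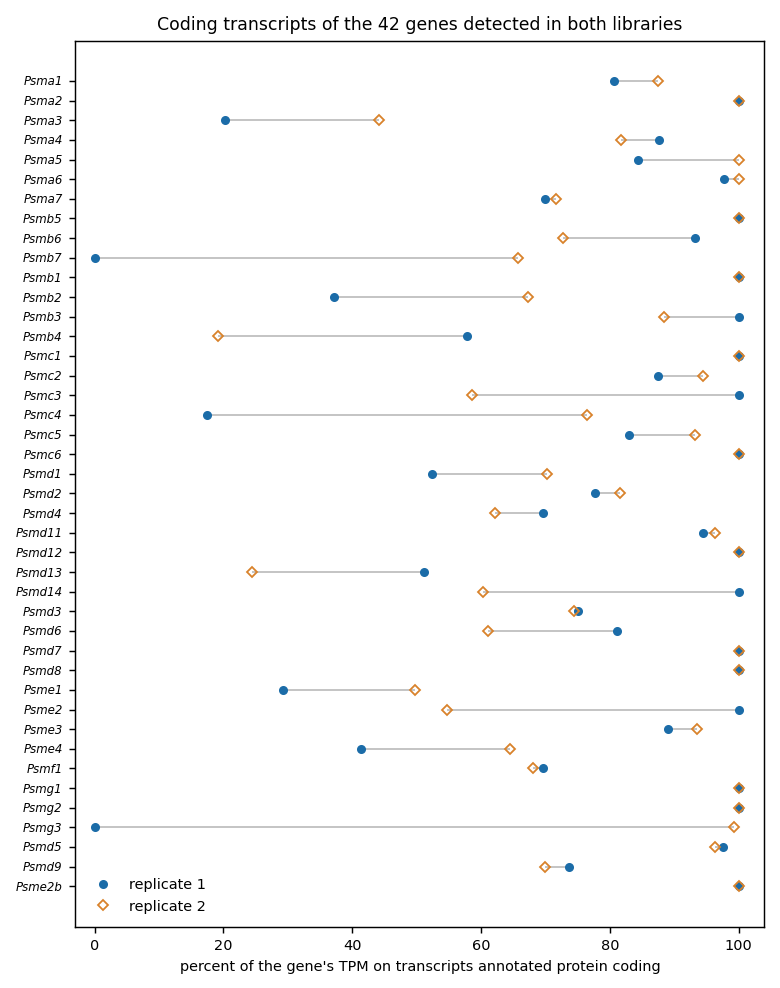
Percent of each gene's TPM on transcripts annotated protein coding, for the 42 genes detected in both libraries (filled circles, replicate 1; open diamonds, replicate 2; lines join the libraries). Psmb7 and Psmg3 are at 0 in replicate 1 and at 65.8% and 99.3% in replicate 2. Genes such as Psmb5, Psmc1, Psmd7 and Psmd8 are at 100% in both, but all their listed transcripts are annotated coding, which fixes that share.

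Pseudogenes can take reads from the genes they copy. By alignment, 20 annotated pseudogenes resembled 15 of the genes at 90% identity or more over at least 200 bases, and 12 of the 20 had no count in either library. At 1 TPM or more stood Gm13835, identical to Psma3 over 685 bases (0.59 and 3.96 TPM), and Gm6542, 96.8% identical to Psma4 over 783 bases (0 and 6.60 TPM). The posterior SD of the count, deposited in the same tables, was above 0 for 11 of the 47 genes and at most 10.1 counts.

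The partners of the proteasome were present throughout. A list of 34 genes of the pathway had 33 in the annotation (Paaf1 was not matched). All 33 were detected in both libraries, against 45.5% of all protein coding genes. Among the abundant ones were the ubiquitin genes Ubb (228 and 172 TPM) and Rps27a (132 and 128 TPM) and the ubiquitin activating enzyme gene Uba1 (98.4 and 137 TPM). Of the remaining particle subunits, the ubiquitin receptor gene Adrm1 had 52.1 and 49.8 TPM and Sem1, a small lid subunit, had 6.44 and 5.34 TPM. Over 2-fold apart were 3 of the 33, beside 23.3% of coding genes. They were Psmb10 and the core assembly gene Pomp (49.4 and 22.7 TPM), higher in replicate 1, and Akirin2, a factor in nuclear import of proteasomes (2.79 and 11.8 TPM), higher in replicate 2; Pomp and Akirin2 were named after their values were seen.

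Proteasome genes are known to be induced together by the transcription factor Nfe2l1 through antioxidant response elements, and many housekeeping genes carry ETS sites. RefSeq promoter windows (GRCm38.p6) of 250 bases before the start were found for 39 of the 47 genes and searched on both strands. The ETS motif CCGGAAG was in 13 of them (33.3%), against 7.83% of 27025 genes and 17.6% of 7830 coding genes detected in both libraries. The core antioxidant response element TGACNNNGC was in 5 (12.8%: Psmb5, Psmb6, Psmc6, Psmd12 and Psmd9), against 11.5% of genes and 14.1% of detected coding genes. Thus the share with that element was near the background, while the share with the ETS letters was above it. Nfe2l1 itself was at 34.1 and 27.2 TPM. The 13 genes with the ETS motif ran from 0.91 TPM (Psmc3ip) to 106 TPM (Psme3) on coding transcripts, as means of the libraries. A link between motif and level was not tested. The windows of 2 catalytic subunits with the core element, and of Psme3, Psmd2 and Psmd11 with the ETS motif, which had the highest coding-transcript levels of those 13 genes (106, 42.2 and 53.5 TPM on average), are shown in the direction of the gene, where capitals mark the element in the first 2 and the ETS motif, on either strand, in the others. They lie at chr14:54618023-54618245 (minus strand, shortened to end before the annotated gene), chr11:70525107-70525356, chr11:101315963-101316212, chr16:20651402-20651651 and chr11:80428365-80428614 (plus strand).
Psmb5: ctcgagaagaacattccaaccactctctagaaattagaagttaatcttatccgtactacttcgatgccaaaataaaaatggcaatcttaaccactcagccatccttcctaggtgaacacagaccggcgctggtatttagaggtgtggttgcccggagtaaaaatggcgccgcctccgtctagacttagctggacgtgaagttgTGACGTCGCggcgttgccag
Psmb6: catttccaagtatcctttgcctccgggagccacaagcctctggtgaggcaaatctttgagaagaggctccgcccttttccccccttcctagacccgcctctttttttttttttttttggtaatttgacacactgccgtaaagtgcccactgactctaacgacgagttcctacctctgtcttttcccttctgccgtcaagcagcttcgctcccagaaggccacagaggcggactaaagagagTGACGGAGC
Psme3: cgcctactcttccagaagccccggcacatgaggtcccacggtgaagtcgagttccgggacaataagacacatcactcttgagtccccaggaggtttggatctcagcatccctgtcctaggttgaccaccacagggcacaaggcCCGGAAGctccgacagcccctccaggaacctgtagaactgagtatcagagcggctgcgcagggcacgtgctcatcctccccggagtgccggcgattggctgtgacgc
Psmd2: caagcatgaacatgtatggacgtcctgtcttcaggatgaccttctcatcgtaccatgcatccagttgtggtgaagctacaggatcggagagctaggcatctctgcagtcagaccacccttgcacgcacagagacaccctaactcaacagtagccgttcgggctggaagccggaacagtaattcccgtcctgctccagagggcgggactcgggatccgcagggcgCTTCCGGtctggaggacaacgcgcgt
Psmd11: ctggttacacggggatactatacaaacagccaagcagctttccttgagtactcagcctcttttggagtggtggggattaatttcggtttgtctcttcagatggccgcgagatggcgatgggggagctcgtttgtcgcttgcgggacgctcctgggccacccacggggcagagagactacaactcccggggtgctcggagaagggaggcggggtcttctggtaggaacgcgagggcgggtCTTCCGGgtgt

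The other motifs searched gave shares as follows. The GC box GGGCGG was in 53.8% of the 39 genes, against 35.4% of all genes and 65.5% of detected coding genes. The palindrome of nuclear respiratory factors, GCGCA and GCGC with any base between them, was in 15.4%, against 4.23% and 10.4%, and CCAAT in 35.9%, against 37.5% and 40.9%. The shares of the GC box and of CCAAT lay below those of detected coding genes, and that of the palindrome above. The loose element TGANNNNGC, which includes every match to the core element, was in 41.0%, against 38.7% and 41.8%. The interferon response element, GAAA and GAAA with any 2 bases between them, was in 3 genes (7.69%), against 3.46% and 3.23%, and the gamma interferon site TTCNNNGAA in 1 (2.56%), against 8.13% and 7.16%. TTTGGCGC of E2F, AAGATGGCG of YY1, the cyclic AMP element TGACGTCA and the stress element TGACGTGG were in none of these windows, against at most 3.09% of detected coding genes. A match is a description of letters only, and the motifs were chosen with expression values of the genes known.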

How the data were processed

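Total RNA of 2 libraries of 100 hematopoietic stem cells was quantified per gene and per transcript. The authors deposited expected counts, which are estimates of reads in which a read matching several places is divided among them, so that not all are whole. TPM values, and posterior means of TPM, were deposited by the authors on a fixed total per library. FPKM values were deposited in the gene tables. The percent of a gene's TPM on each transcript was deposited in the transcript tables. Intervals of TPM, whose level no source states, and posterior SDs of counts were deposited too. Per the text deposited with the samples, the build is mm10 and the annotation GENCODE M4, and per the file headers the columns are those of RSEM. Aligner, versions and strand setting: none of these is given in the sources used here.

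Symbols, gene and transcript types and positions came from GENCODE M21 of the same build by versionless identifier (42462 of 43346, 98.0%). The 26345 entries that carry no mouse gene identifier were left out. A single group allows no test between groups. Differences are log2(TPM + 1) of replicate 1 minus replicate 2, which makes those of low genes smaller. Ratios of genes inside a library have 0.1 TPM added to both values and an exact two-sided sign-flip test. Counts of 0 were given a limit of 3 counts, which covers counting error only. The deposited intervals were made within a library and hold no spread between libraries. PCR reads without molecular identifiers are not independent molecules, and neither limits nor intervals take account of this. Sequences came from GENCODE M21 and RefSeq promoters, and pseudogenes were aligned with BLASTN 2.17.0. The 2-fold call was tested on simulated data with 8-fold changes, in genes whose mean level passed detection, and with 0.1 rather than 1 TPM added. The call as reported, with 1 TPM added, was thus not itself simulated. The simulated data carry counting error alone and no spread between replicates.

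Genes were named by a rule: all family genes named or counted, and of the pathway list the immunoproteasome and other subunits, the 5 of highest mean TPM and any gene not detected in both. Some genes that the rule names are not reported here. The family, lists, motifs and rule were chosen with earlier results of these data known. Alternatives were other detection limits, units, scalings, filters and pseudocounts, single libraries, and coding transcripts. For scaling, expected counts were rounded and given TMM factors with edgeR 4.0.16 or size factors with DESeq2 1.42.0 under R 4.3.3. Python 3.11.15 was used for the rest, with pandas 2.3.3, numpy 2.4.6, matplotlib 3.10.9 and scipy 1.17.1. Protein sequences were not used here.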

Additional observations from a re-analysis of the deposited data

How the results depend on the processing

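No paired analysis was possible because both libraries belong to a single group. Of 125 values under alternatives, 27 moved beyond the spread or limit set for them, 4 changed sign and 94 did neither. Ratios were judged by sign alone, so some of the 94 had other sizes. Psmb6 over Psmb9 is among the 94, with 0.40 ± 0.04 on gene levels and 1.24 on coding transcripts. Use of coding transcripts, and the sum of Psme2 and Psme2b, were chosen after seeing the data. Rescaling TPM to nuclear coding genes gave medians of 88.7 (all genes with a role), 81.0 (alpha ring), 90.3 (beta ring), 87.7 (ATPases), 185 (other base), 103 (lid), 253 (activators), 138 (inhibitor), 22.3 (core chaperones) and 24.6 (base chaperones), by construction. Coding transcripts gave, in the same order, 18.9, 16.6, 17.7, 21.5, 31.9, 22.3, 46.8, 26.9, 5.00 and 4.95 TPM, of which the lid alone stayed within its spread. That spread was the widest of the roles (28.7 ± 7.32 TPM on gene levels, SD, n = 2). Both alpha ring values include Psma8. Genes detected in both libraries gave 27.0 (alpha ring), 9.19 (core chaperones) and 19.4 TPM (base chaperones), and posterior means 24.7 (beta ring) and 69.8 TPM (activators). The count over 2-fold apart was 5, beside 11.2% of coding genes higher in replicate 1 and 12.1% in replicate 2. It became 2 with 5 TPM added (4.84% and 2.76% of coding genes), 2 among genes detected in both (10.1% and 5.35%) and 9 on coding transcripts (10.4% and 14.4%). Psmb5 over Psmb8 became 0.38 on coding transcripts and ranged from -0.94 to 0.22 with 1 library left out; on coding transcripts Psme3 over Psme1 became 0.45 and Psmb7 over Psmb10 -3.53, a mean set by a listed 0 in replicate 1 and the added 0.1 TPM, with 0.93 in replicate 2. Otherwise the cause was not tested. The scaling moved the median library difference of coding genes from 0.09 to -0.08 (rescaled), -0.05 (TMM) or -0.06 (DESeq2), and that of the family to -0.17, -0.10 or -0.11. Genes under 5 TPM had gaps in replicate 1 although it holds more counts, and the cause was not tested.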
